A study of Homo sapiens with 6 samples.

Results

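The 10 protein-coding genes described here lie on either side of CYP24A1 on chromosome 20q13: NFATC2, ATP9A, SALL4, ZFP64, TSHZ2, ZNF217 and BCAS1 towards lower coordinates, and PFDN4, DOK5 and CBLN4 towards higher ones. They were taken as a named list, and the question was whether the large differences in CYP24A1 signal between the arrays spread along the locus. A probe was assigned to a gene when its sequence matched a sense transcript of that gene without mismatch, which gave 25 of the 125601 probes that are not controls, between 1 and 5 for each gene. In all, 43495 genes had a transcript matched in this way. Each of the 25 matched 1 place in the genome (hg38) and the transcripts of 1 gene.

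The cells were SKOV3, an epithelial line from a human ovarian carcinoma, and the hormone was 1α,25(OH)2D3 (calcitriol), which activates the vitamin D receptor. The line's name is that of the study, since the labels spell it in several ways, and they name the mirVana kit where the methods name TRIzol. RNA of the cells was hybridised to 6 single-color Agilent arrays. The label of 3 arrays is 1α,25(OH)2D3, 100 nmol/L for 72 h (VD 1 to VD 3), and that of the other 3 is vehicle, ethanol at the same concentration for the same time (vehicle 1 to vehicle 3). VD 1 and VD 2 share a slide, and VD 3 shares the other with all 3 vehicle arrays. With the slide as a block, a log2 fold change between the labels therefore compares VD 3 alone with the 3 vehicle arrays. Nothing states that arrays of 1 label came from separate cultures, so the p-values measure the spread between these arrays, which may be technical.

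All values are log2 signals from the authors' table, in which every array has the same distribution with a median of 4.78. A probe was tested with limma when the 3 arrays of either label, or of both, had it flagged by the scanner software as well above background, as 63372 probes were. The share of probes well above background was 49.1% to 57.6% per array, and no spot was saturated. Of the epithelial markers KRT7, KRT8, KRT18, KRT19, ERBB2, EPCAM, PAX8 and MUC16, 8 of 8 had a probe well above background on all 6 arrays. So had 4 of 4 markers of other cells (PTPRC, CD3E, PECAM1 and ALB), although the ALB probe matched a non-coding transcript and 6 of the 8 PTPRC probes were at background on every array. Among the epithelial markers, the 1 KRT18 probe also matched a non-coding transcript.

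CYP24A1 encodes the mitochondrial 24-hydroxylase that breaks down 1α,25(OH)2D3, and its transcription is switched on by the vitamin D receptor, so it is widely used as a readout of the hormone. The interval of 20q around it is often gained or amplified in carcinomas of the breast, ovary and colon. BCAS1 and ZNF217 were first described as genes of that amplicon. The members have different roles: ZNF217, ZFP64, SALL4 and TSHZ2 are zinc-finger proteins of the nucleus, NFATC2 and DOK5 carry signals from receptors, ATP9A and CBLN4 act at membranes and outside the cell, and PFDN4 is a subunit of prefoldin, which passes new actin and tubulin chains to their chaperonin.

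The arrays did not follow their labels at CYP24A1 itself (chr20:54153446-54173986, minus strand). Probe A_23_P28815, in the 3′ UTR in exon 12 (chr20:54154407-54154466), read 2.23, 13.84 and 3.30 on VD 1, VD 2 and VD 3 and 14.18, 4.75 and 14.34 on vehicle 1, vehicle 2 and vehicle 3. It was well above background on VD 2, vehicle 1 and vehicle 3 and on no other array. Probe A_33_P3369401, in the coding part of exon 10 (chr20:54157390-54157449), read 3.88, 14.64 and 4.46 on the VD arrays and 15.16, 8.24 and 15.25 on the vehicle arrays. It was well above background on VD 2 and on all 3 vehicle arrays. Vehicle 2 thus stood between the high arrays and VD 1 and VD 3 at this probe. Probe OEV5_63001 matches a transcript of CYP24A1 without an annotated coding sequence (chr20:54162581-54162640). It read 2.14, 9.99 and 2.15 against 10.32, 2.21 and 10.23. This probe lies in the stretch that the study's supplement displays for its most upregulated lncRNA, named below with BCAS1. The study reports that most of this lncRNA is shared with CYP24A1. Whether the probe reads the lncRNA, CYP24A1 or both was not tested. The high arrays were thus VD 2, vehicle 1 and vehicle 3 for all 3 probes. For A_33_P3369401, the log2 fold change of the arrays labelled 1α,25(OH)2D3 over those labelled vehicle was -5.22 ± 3.053 (SE, n = 3 and 3), with an adjusted p of 0.703 (limma, Benjamini-Hochberg). With the slide as a block it was -8.42, for VD 3 alone against the vehicle arrays. This direction between the labels is the opposite of the one the study gives for CYP24A1. The study gives CYP24A1 as the mRNA most raised by the hormone, and that rise is not obtained from these values grouped by these labels. Whether the labels of some arrays were exchanged was not tested, and no array was relabelled. Directions below are therefore directions between labels, not between known treatments. They need not be those of the study's own comparison.

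BCAS1 and PFDN4, the immediate neighbours on either side, were the members with a tested probe for which the same 3 arrays as for CYP24A1 were the highest. Within these 3 arrays the order was that of A_23_P28815 for PFDN4 and differed for BCAS1. Within the other 3 arrays it differed for both genes. Their probe sequences are shown because these readings are the ones that go with CYP24A1, and the CYP24A1 probe in exon 10 is given for comparison. Each reads 5′ to 3′ along the transcript, lies within coding sequence, and is written in lower case throughout.
BCAS1 probe A_23_P17420: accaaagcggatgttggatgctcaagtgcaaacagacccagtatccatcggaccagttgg
CYP24A1 probe A_33_P3369401: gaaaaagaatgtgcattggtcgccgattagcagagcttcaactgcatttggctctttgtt
PFDN4 probe A_23_P166023: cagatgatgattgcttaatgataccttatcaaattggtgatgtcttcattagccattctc
The probes hold 51.7%, 43.3% and 35.0% G and C, in that order.

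BCAS1 (chr20:53936777-54070594, minus strand) encodes a protein abundant in oligodendrocytes and in some epithelia, and its nearer edge, the 5′ one, is 82.9 kb from CYP24A1. Its coding probe A_23_P17420 (exon 13, chr20:53944935-53944994) was well above background on all 6 arrays and read 5.61, 6.70 and 5.50 on the VD arrays and 6.63, 5.57 and 7.79 on the vehicle arrays. VD 2, vehicle 1 and vehicle 3, the arrays high in CYP24A1, were thus also the highest in BCAS1, and the lowest of them lay 1.03 above the highest of the others. Of all tested probes, 2083 (3.29%) had these same 3 arrays highest, and 24 (0.0379%) had them apart by more than 1 log2 unit. The second BCAS1 probe, A_33_P3330911 in the 3′ UTR (chr20:53943978-53944037), read 4.41, 5.50 and 4.28 against 5.32, 4.38 and 6.49, with the same 3 arrays highest and a gap of 0.91. It was well above background on VD 1, VD 2, vehicle 1 and vehicle 3 and was not tested. Both probes lie in the same exon and measure 1 transcript, so they are not independent. The study lists BCAS1, with a positive sign, among the mRNAs correlated with its most upregulated lncRNA, lncBCAS1-4_1. That correlation comes from the study's own microarray data, so it is not independent of the readings here. A figure legend of the study calls the mRNAs regulated by this lncRNA differentially expressed.

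From the lowest to the highest array BCAS1 spanned 2.29 on the log2 scale, or 4.90-fold, more than 98.4% of the tested probes. For CYP24A1 the span was 12.11 at A_23_P28815, or 4420-fold. Vehicle 3 stood above vehicle 1 and VD 2 in BCAS1, whereas these 3 arrays differed by at most 0.50 in CYP24A1 at A_23_P28815. Between the labels, the BCAS1 probe A_23_P17420 averaged 5.93 ± 0.67 against 6.67 ± 1.11 (SD, n = 3 and 3), and the labelled groups overlapped. Their log2 difference of -0.73 ± 0.559 (SE) had an adjusted p of 0.736 in limma. Without vehicle 2 it was -1.28 with an unadjusted limma p of 0.0303, which passes the fold change and p-value threshold of the study's results. Without vehicle 3 it was -0.17 (unadjusted limma p 0.724), and with the slide as a block -1.17, for VD 3 alone against the vehicle arrays.

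PFDN4 (chr20:54208087-54228052, plus strand) begins 34.1 kb from CYP24A1 and is the nearest of the 10 genes. Its 1 probe, A_23_P166023 (exon 3, chr20:54215346-54215405), was well above background on all arrays. It read 8.28, 8.68 and 8.0 on the VD arrays and 8.69, 8.13 and 8.70 on the vehicle arrays. The same 3 arrays as for CYP24A1 were the highest, within 0.02 of each other, and they lay 0.39 above VD 1, the next array. The whole span was 0.70, or 1.62-fold, close to the median of 0.69 over all tested probes. Between the labels the means were 8.32 ± 0.34 and 8.50 ± 0.33 (SD, n = 3 and 3), and the log2 fold change of -0.18 ± 0.240 (SE) had an adjusted p of 0.84 (limma). With the slide as a block it was -0.50, for VD 3 alone against the vehicle arrays. With each array left out in turn it lay between -0.02 (without VD 3) and -0.37 (without vehicle 2). On the scanner's own signals, scaled to the 75th percentile of each array, the 3 arrays were again the highest, with gaps of 1.01 and 0.86 for the BCAS1 probes and 0.38 for PFDN4. On that scale 3.18% of the tested probes had these 3 arrays highest.

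**Figure D1:**
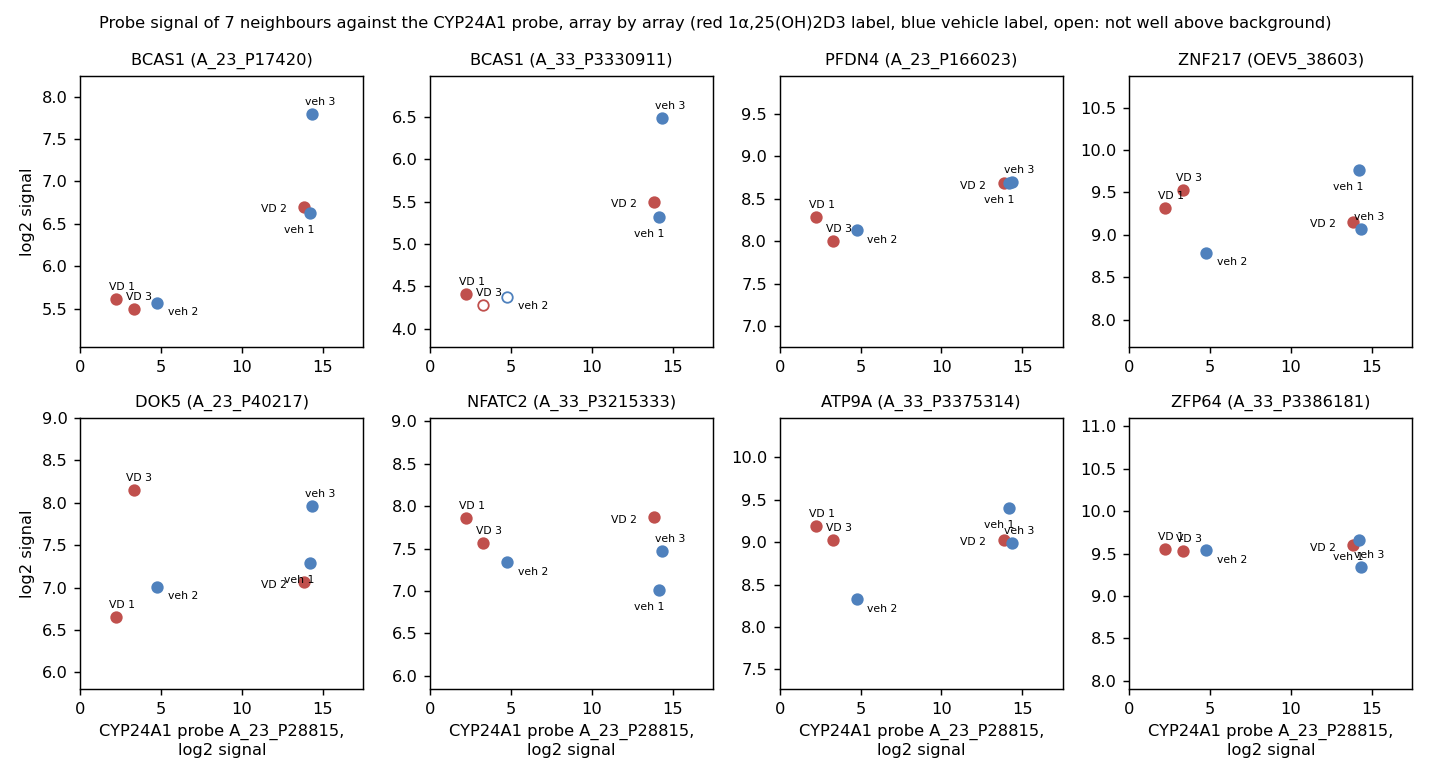
Log2 signal of 8 probes of 7 neighbours (y axes, each spanning 3.2 log2 units) against the log2 signal of the CYP24A1 probe A_23_P28815 on the same array (x axes), with 1 point per array, red for the label 1α,25(OH)2D3, blue for vehicle and open where the probe was not well above background. In the BCAS1 and PFDN4 panels VD 2, vehicle 1 and vehicle 3 lie above the other 3 arrays, and in the other 5 panels they do not.

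Of the zinc-finger genes, ZNF217 and ZFP64 had probes well above background on all arrays, whereas SALL4 and TSHZ2 were at or near background. ZNF217 (chr20:53567071-53609907, minus strand), a transcriptional repressor and a candidate oncogene of the amplicon, has 3 probes, all well above background on all 6 arrays. Its brightest, OEV5_38603 in the 5′ UTR (chr20:53583089-53583148), read 9.32, 9.15 and 9.53 on the VD arrays and 9.76, 8.79 and 9.07 on the vehicle arrays. Vehicle 1 was the highest and vehicle 2 the lowest, so the highest arrays were not those of CYP24A1. The log2 fold change between the labels was 0.13 ± 0.263 (SE, n = 3 and 3), with an adjusted p of 0.905 in limma, and it was 0.27 and 0.31 for the 3′ UTR probes A_23_P210608 and A_33_P3272773. Vehicle 2 was the lowest array for all 3 ZNF217 probes, and without it the value for OEV5_38603 was -0.08. Vehicle 2 was also the array with the smallest share of probes well above background, 49.1%, whose part in this was not tested.

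ZFP64 (chr20:52051663-52204308, minus strand) encodes a zinc-finger protein that binds DNA, and its 5 probes fall on different transcripts. The brightest, A_33_P3386181 at the end of the coding sequence (chr20:52152146-52152205), read 9.55, 9.60 and 9.53 against 9.66, 9.54 and 9.34. These 6 readings spanned 0.32, a span smaller than that of all but 8.43% of the tested probes, and the log2 fold change between the labels was 0.05 ± 0.153 (SE, n = 3 and 3; adjusted p 0.936, limma). Without vehicle 3 the sign turned, at -0.04. The coding probe A_33_P3345314 of a longer form (chr20:52097374-52097433) read 6.76, 6.66 and 6.72 against 6.85, 6.94 and 6.89. The labelled groups did not overlap there, although the log2 fold change was -0.18 ± 0.139 (SE), with an adjusted p of 0.742 (limma). Groups without overlap were found for 12.2% of all tested probes. Of the other ZFP64 probes 2 were tested, with log2 fold changes of -0.26 (A_23_P120467) and -0.05 (A_23_P501877), and A_33_P3345319 was well above background on VD 1 and VD 2 alone and was not tested.

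SALL4 (chr20:51782331-51802521, minus strand), a regulator of pluripotency that is silent in most adult tissues, had no tested probe. Its coding probe A_23_P109072 read 2.77, 3.70 and 4.58 against 2.75, 3.68 and 4.60 and was well above background on vehicle 3 alone. OEV5_62120, on a SALL4 transcript without an annotated coding sequence, read 4.54, 5.07 and 4.37 against 4.42, 4.54 and 4.66 and was well above background on VD 1, VD 2, vehicle 1 and vehicle 3. The third probe was at background throughout. TSHZ2 (chr20:52972358-53495330, plus strand), a homeobox and zinc-finger gene of limb and trunk development, has 1 probe in the coding part of exon 2. It read 2.29, 2.50 and 2.06 against 2.10, 2.10 and 2.13, and no array was well above background.

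Of the signalling genes, NFATC2 gave the one member probe with an unadjusted p under 0.05. NFATC2 (chr20:51386957-51562831, minus strand) is the calcineurin-dependent transcription factor NFAT1. Its brightest probe, A_33_P3215333 in the 3′ UTR (exon 11, chr20:51391228-51391287), read 7.86, 7.87 and 7.57 on the VD arrays and 7.01, 7.34 and 7.47 on the vehicle arrays. Every VD array lay above every vehicle array, by 0.10 at the nearest pair. The means were 7.77 ± 0.17 and 7.27 ± 0.24 (SD, n = 3 and 3). Their log2 difference of 0.49 ± 0.183 (SE) had an unadjusted limma p of 0.0285 and an adjusted p of 0.701, and 6.77% of all tested probes had an unadjusted p under 0.05. It lay between 0.36 and 0.59 with each array left out in turn and was 0.30 with the slide as a block, for VD 3 alone against the vehicle arrays. With the replicate number as a block, the unadjusted limma p was 0.0531. It was also above 0.05 without VD 1 (0.086), VD 2 (0.0857) or vehicle 1 (0.091, all by limma). The highest arrays were not those of CYP24A1: vehicle 1, high in CYP24A1, was the lowest array here. A second NFATC2 probe in the coding part of exon 6, A_23_P91278, gave 3.19, 4.37 and 5.06 against 4.80, 4.14 and 5.60. It was well above background on VD 3, vehicle 1 and vehicle 3 alone, was not tested, and did not show the difference between the labels seen at the other probe.

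DOK5 (chr20:54475593-54651169, plus strand), a docking protein of the insulin and RET receptors, begins 301.6 kb beyond CYP24A1. Its probe A_23_P40217 in the 3′ UTR (exon 8, chr20:54650664-54650723) read 6.65, 7.06 and 8.15 on the VD arrays and 7.29, 7.01 and 7.96 on the vehicle arrays. VD 3 and vehicle 3 were the highest, and the span of 1.5 exceeded that of 92.2% of the tested probes. The log2 fold change between the labels was -0.13 ± 0.407 (SE, n = 3 and 3), with an adjusted p of 0.938 in limma. It turned to 0.73 with the slide as a block, where VD 3, the highest array, stands alone for its label. It also turned without VD 1, at 0.19, and without vehicle 3, at 0.14. OEV5_46097, on a DOK5 transcript without an annotated coding sequence, read 5.16, 5.49 and 5.76 against 4.91, 5.54 and 5.56, a log2 fold change of 0.13. The third probe was at background on every array.

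ATP9A (chr20:51596514-51768390, minus strand), a P4-type ATPase of endosomes, was well measured by both of its 3′ UTR probes. The brighter, A_33_P3375314 (exon 28, chr20:51600863-51600922), read 9.19, 9.03 and 9.03 on the VD arrays and 9.40, 8.33 and 8.99 on the vehicle arrays. Vehicle 2 was the lowest array and the other 5 lay within 0.41 of each other. The log2 fold change between the labels was 0.17 ± 0.266 (SE, n = 3 and 3; adjusted p 0.867, limma), and without vehicle 2 it was -0.12. The other 3′ UTR probe, A_23_P380614, read 8.28, 8.24 and 8.19 against 8.37, 7.51 and 7.94, again with vehicle 2 lowest. A probe to a non-coding ATP9A transcript was at background. CBLN4 (chr20:55997357-56005519, minus strand), a secreted protein that organises synapses, gave no signal well above background. Its 1 probe read 2.09, 2.16 and 2.02 against 2.05, 2.02 and 2.07.

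**Figure D2:**
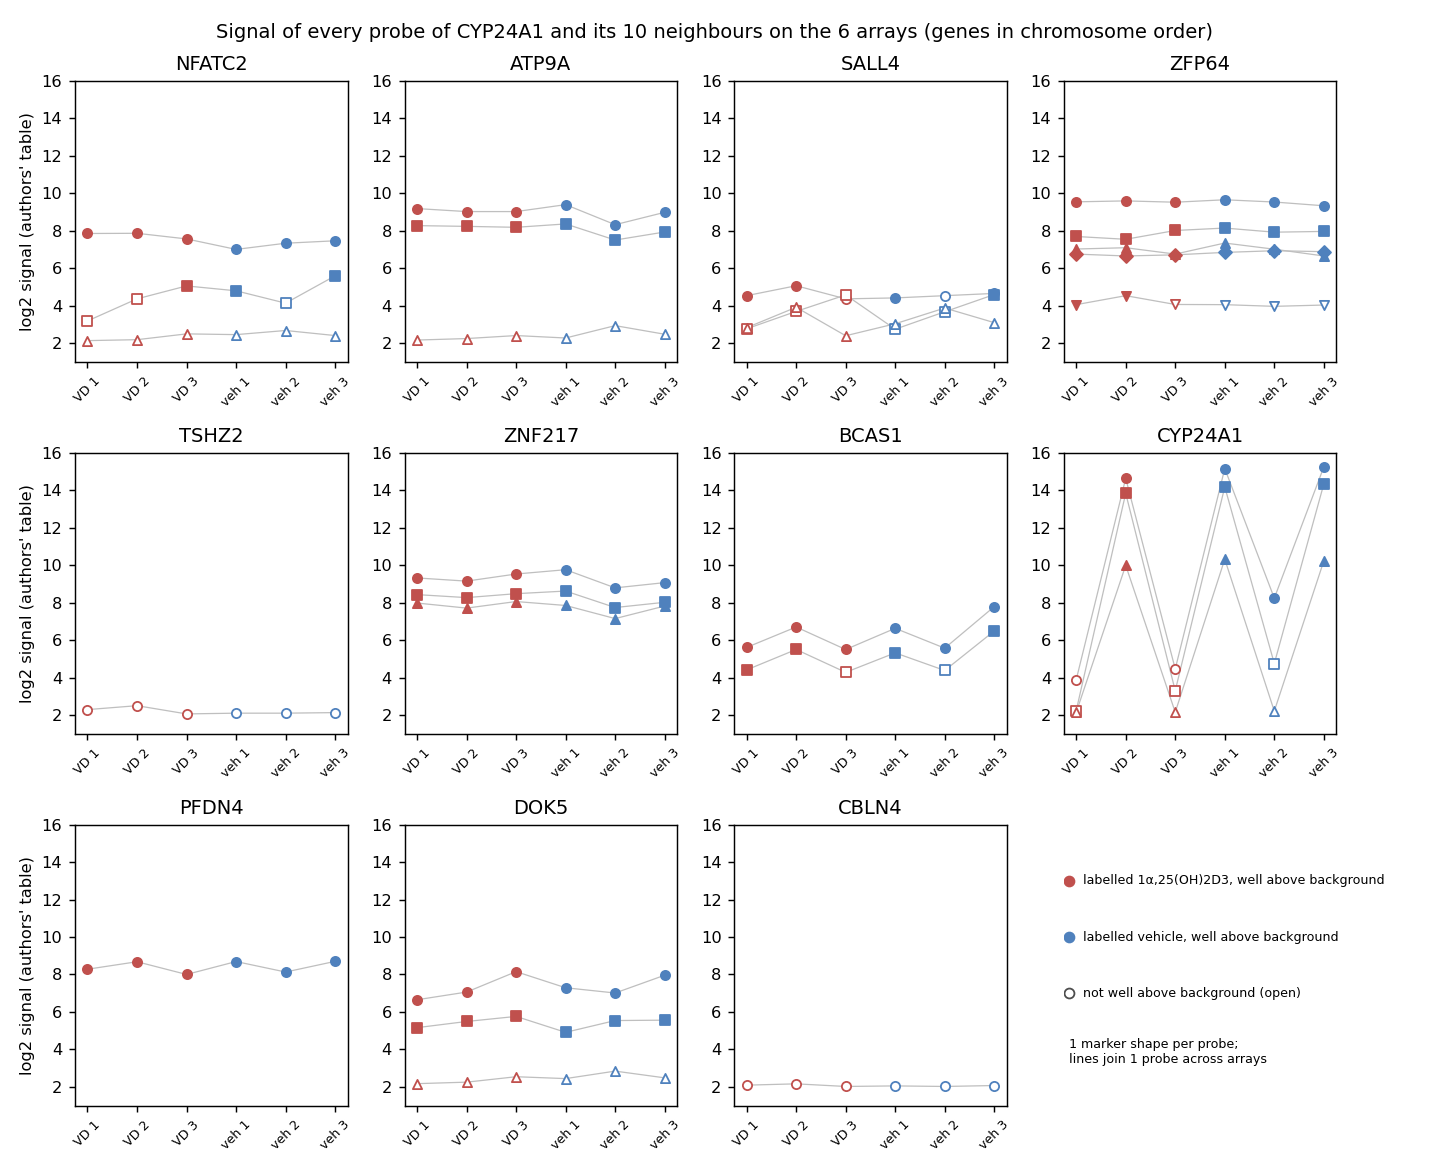
Log2 signal of every probe of CYP24A1 and the 10 neighbours on each of the 6 arrays, in panels in chromosome order on the same y axis, with 1 marker shape per probe, red for the label 1α,25(OH)2D3, blue for vehicle and open where the probe was not well above background. CYP24A1 differs between arrays by as much as 12.11 log2 units, and the largest span of a tested neighbour probe is 2.29, at BCAS1.

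Over the whole list, 14 of the 25 member probes were tested, from 7 of the 10 genes, and all 14 were well above background on all 6 arrays. SALL4, TSHZ2 and CBLN4 had none. Of the 14, 0 passed a fold change above 2 with an unadjusted limma p under 0.05, the threshold of the study's results, against 472 of all 63372 tested probes (0.745%). These counts compare the labels, which at CYP24A1 do not give the study's direction. They therefore do not by themselves show which neighbours the study called. The study's list of mRNAs correlated with its most upregulated lncRNA holds BCAS1 and no other member. As given above, a figure legend of the study calls the mRNAs regulated by this lncRNA differentially expressed. The count of 0 between the labels thus says nothing on BCAS1 in the study's own comparison. Split by direction, the shares of all tested probes were 0.486% higher and 0.259% lower with the label 1α,25(OH)2D3. Its methods ask for a log2 fold change beyond 2 in either direction and a Benjamini-Hochberg p below 0.05, and by that rule 0 of the 14 and 0 of all tested probes passed (0.0%; 4289 had an unadjusted limma p under 0.05), and the smallest adjusted p of any probe was 0.701. The log2 fold changes lay between -0.73 and 0.49 with a median of 0.088 (-0.004 over all tested probes), 8 of them above 0 and 6 below. The span over the arrays had a median of 0.86 (0.69 over all tested probes) and ran from 0.28 to 2.29. The 3 arrays highest in CYP24A1 were the highest for 2 of the 14 probes, those of BCAS1 and PFDN4.

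To follow the locus between the genes, all 111 probes that match the genome once between the outer ends of NFATC2 and CBLN4 were read, whatever they target. This interval of 4.62 Mb holds 11 protein-coding genes, which are the 10 members and CYP24A1, and 26 lncRNA genes. Of the 111 probes 33 were tested. Inside CYP24A1, 1 probe was tested, and within 100 kb of it 1 more, that of PFDN4, and both had the same 3 arrays highest as A_23_P28815. Between 100 kb and 1 Mb, 12 were tested and 1, BCAS1, had them highest, and beyond 1 Mb 0 of 19 had. Among the 18 tested probes that belong to neither a member nor CYP24A1 the count was 0. Of the 65 untested ones 4 had the same 3 arrays highest, all over 1 Mb away. Of these 3 were well above background on no array, and OEV5_44034, 1465.3 kb away and well above background on 4 arrays, had a gap of 0.07. The nearest of these 18 lay 278.1 kb away, at the pseudogene SUMO1P1, so among tested probes the stretch next to CYP24A1 is covered by those of PFDN4 and BCAS1 alone. The share of all tested probes with these arrays highest is that given above, 3.29%.

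**Figure D3:**
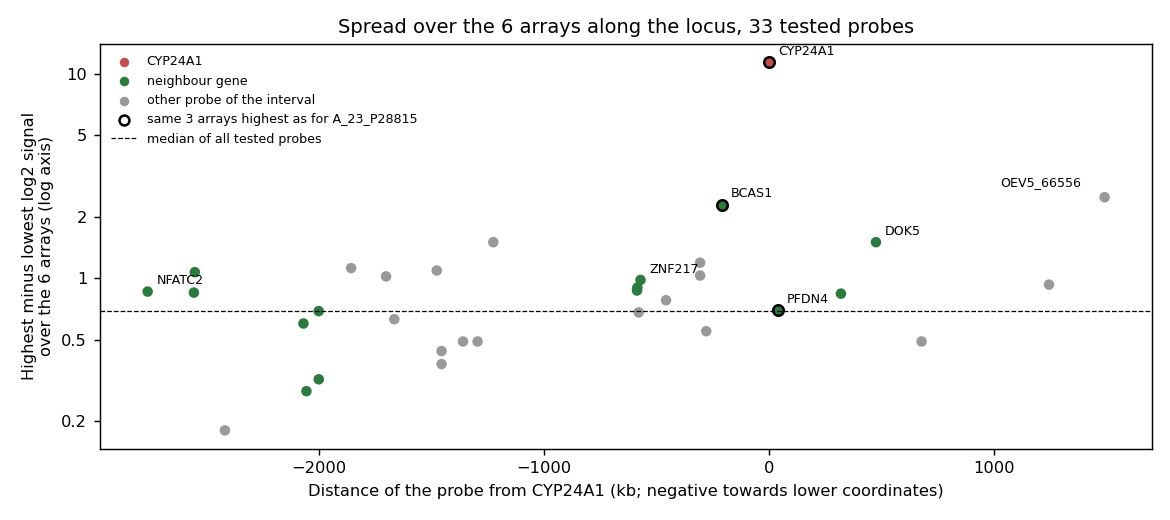
Highest minus lowest log2 signal over the 6 arrays (y axis, log scale) for the 33 tested probes of the interval, against their distance from CYP24A1 in kb (x axis), with CYP24A1 in red, neighbours in green, other probes in grey, a black ring where the 3 arrays highest in A_23_P28815 are also the highest, and a dashed line at the median of all tested probes, 0.69. The rings are at CYP24A1 (11.37), BCAS1 (2.29) and PFDN4 (0.70).

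One probe of the interval passed the fold change and unadjusted p-value threshold between the labels. OEV5_66556 (chr20:55667543-55667602, minus strand), 1493.6 kb from CYP24A1, matches a transcript of the lncRNA gene ENSG00000287478. It read 4.90, 6.36 and 6.24 on the VD arrays and 3.87, 5.10 and 3.98 on the vehicle arrays, and the groups overlapped. The log2 fold change was 1.52 ± 0.465 (SE, n = 3 and 3), with an unadjusted limma p of 0.0123 and an adjusted p of 0.701. It was not well above background on vehicle 1 and vehicle 3. A probe shifted by 1 base at the same place, A_21_P0010060, had no array well above background and read 2.02, 3.12 and 2.18 against 2.14, 3.36 and 2.12, so these probes did not give the same picture. The call was lost without VD 3, with normexp background correction, and when probes had to be well above background on all 6 arrays.

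**Figure D4:**
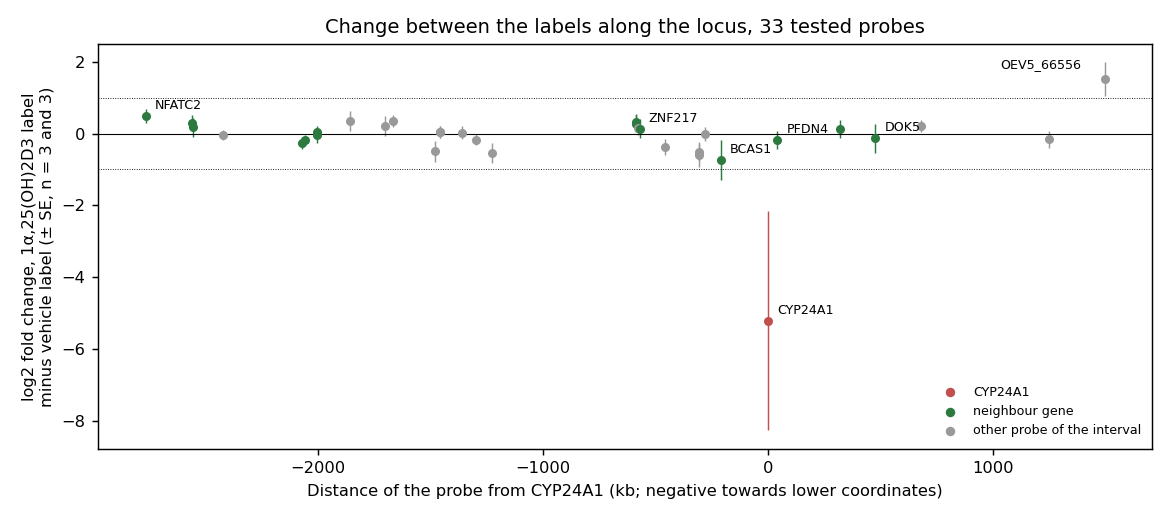
Log2 fold change of the arrays labelled 1α,25(OH)2D3 over those labelled vehicle (y axis, with SE as bars, n = 3 and 3) for the 33 tested probes, against their distance from CYP24A1 in kb (x axis), with dotted lines at a fold change of 2 in either direction. CYP24A1 lies at -5.22 with an SE of 3.053, OEV5_66556 at 1.52, and every other probe between the dotted lines.

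The protein-coding genes of 20q13 farther out on both sides served for comparison, as a list of 23 genes of which 22 had a probe and 16 a tested one. Of their 35 probes 21 were tested, 9 with a log2 fold change above 0 and 12 below, between -0.64 and 0.78 with a median of -0.022. Of the 21, 0 passed the fold change and unadjusted p-value threshold and 0 had the arrays of CYP24A1 highest, against 0.745% and 3.29% of all tested probes. Some of the 14 untested outer probes also had these arrays highest. The widest gap among them was 0.86, at a BMP7 probe that was well above background on no array. The highest values were those of PARD6B, a polarity protein, at 0.78 (adjusted p 0.704), and of AURKA, the mitotic Aurora A kinase, at 0.63 (adjusted p 0.705). The lowest were those of the 2 probes of PMEPA1, an inhibitor of TGF-β signalling, at -0.64 (adjusted p 0.719) and -0.37 (adjusted p 0.837, all by limma). BCAS1 had a wider span over the arrays, 2.29, than any of the 21 outer probes, for which the highest was 1.92 and the median 0.59.

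The vitamin D receptor binds DNA with its partner RXR at pairs of a short motif. The hexamer AGGTCA, its variant AGTTCA, the hexamer GGGTCA and its variant GGTTCA were searched on both strands in the 250 bases before the RefSeq transcription starts (GRCh38.p14) of the 7 members the table lists. The PFDN4 stretch is printed because PFDN4 is the nearest gene and shared its 3 highest arrays with CYP24A1, and the capitals mark the 1 hexamer in it, at position -171 counted from the start (chr20:54207837-54208086, plus strand).
PFDN4 upstream: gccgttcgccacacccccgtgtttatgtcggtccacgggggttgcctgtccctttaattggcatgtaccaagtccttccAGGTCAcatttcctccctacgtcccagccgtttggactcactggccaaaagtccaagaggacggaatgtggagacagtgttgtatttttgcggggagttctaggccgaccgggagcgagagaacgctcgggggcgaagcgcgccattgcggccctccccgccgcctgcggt
Any of these hexamers was found in 33.8% of the 35116 stretches of this length in the table, and AGGTCA in 12.1%. One of the TSHZ2 starts had 2 matches, and the stretches of NFATC2, ATP9A, ZFP64, ZNF217 and DOK5 had 0. A pair of hexamers as direct repeats 3 bases apart (DR3) was found in 0.0655% of all stretches and in 0 of those of the members. BCAS1, SALL4 and CBLN4 were not searched. CYP24A1, the gene switched on by the receptor, was not searched either, so it gives no comparison for these matches. Matches of this kind describe letters and not sites of binding.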

How the data were processed

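Per the labels and the study's methods, total RNA was labelled with Cy3 and hybridised to single-color arrays. The authors scanned these on an Agilent scanner and read the images with Agilent Feature Extraction 10.7.1.1. They deposited a spot intensity on a linear scale with detection flags, and a table of log2 values. The sorted columns of this table differ by at most 0.00091, so it was quantile normalized, and its rank correlation with the scanner signal of the same array was at least 0.9998. The scale and direction are thereby known. The software for its normalization is not given in the sources used here. The files name no gene, so probe sequences were matched without mismatch to GENCODE 44 transcripts and to hg38. The array design names hg19, and no coordinate of the files was used.

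A probe counted as well above background where at least 0.5 of its spots, outliers left out, were flagged so. The deposited log2 values were tested with limma 3.58.1 (R 4.3.3), label against label without a covariate, with Benjamini-Hochberg adjustment over all 63372 tested probes. Of 125601 probes, 17 without a value on some array were left out. The script was tested on simulated data. The number of arrays, 3 per label, limits the precision.

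Named were all members and CYP24A1 with every probe, and, of the other probes of the interval and the outer 20q13 genes, those past the fold change and unadjusted p-value threshold or otherwise the 2 highest and 2 lowest. A gene's main probe was the brightest over the 6 arrays. Members and lists were chosen with earlier results of these data known. Arrays were never averaged or tested by their CYP24A1 signal, since that would group them by an outcome: they are given array by array. The alternatives were scanner signals scaled to the 75th percentile, normexp with an offset of 50, other filters on background, the slide or the replicate number as a block, and each array left out in turn. The scaled signals and the filter on all 6 arrays were applied to the count of probes with the same 3 arrays highest after the data had been seen.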

Additional observations from a re-analysis of the deposited data

How the results depend on the processing

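The slide block leaves 1 VD array in the comparison, so no counts are given for it. Under the other alternatives 0 member probes passed the fold change and unadjusted p-value threshold, except with arrays left out. There the count lay between 0 and 1 (BCAS1, lower without vehicle 2). Over all probes the count of 472 (308 higher, 164 lower) became 33 (14 and 19) with normexp, 1612 (872 and 740) without a filter, 808 (402 and 406) with the slide as a block and 157 (94 and 63) when detection was required on every array. With 1 array left out it lay between 296 (without VD 1) and 1182 (without VD 3, 497 higher and 685 lower), and without vehicle 1 it was 1110, of which 4 also passed the adjusted threshold. For the interval the count of 1 became 0 with normexp, 2 without a filter and 0 with detection on every array required, and it lay between 0 (without VD 3) and 3 (without vehicle 2) with 1 array left out, and 2 without VD 2. For the outer genes the count of 0 lay between 0 and 1 (1 without VD 2, 1 without vehicle 1). The log2 fold change of DOK5 turned to 0.73 with the slide as a block (VD 3 against the vehicle arrays), and leaving out 1 array took it from -0.56 to 0.19. The same took ATP9A from -0.12 to 0.42, ZFP64 from -0.04 to 0.12, ZNF217 from -0.08 to 0.40, and, without a change of sign, BCAS1 from -1.28 to -0.17 and PFDN4 from -0.37 to -0.02. The cause of these changes was not tested, beyond fewer or more probes and arrays entering. Replicate numbers gave no sign of pairing, with correlations of the deviations of same-numbered arrays of 0.12, 0.09 and -0.03, and VD 2 correlated best with vehicle 3 (0.20). The deviations were taken from the mean of each label. Each label holds arrays high and arrays low in CYP24A1, so these correlations cannot decide whether arrays are paired. With the replicate block 582 probes passed in all and 0 of the members, 1 of the interval and 0 of the outer genes. VD 2, vehicle 1 and vehicle 3 were also the highest arrays in BCAS1 and PFDN4 on the scaled scanner signals, although not always in the same sequence. The filter on all 6 arrays leaves these values as they are. SALL4, TSHZ2 and CBLN4, at or near background, allow no statement on a difference.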
